A study of Mus musculus with 8 samples.

Results

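The genes described here are the colony-stimulating factors, the related cytokines Lif and Osm, and their receptors, measured in mouse macrophages that did or did not express a reporter of Il19. The 10 members were found by symbol in the deposited table of 17823 genes: 5 ligands (Csf1, Csf2, Csf3, Lif and Osm) and 5 receptor genes (Csf2ra, Csf2rb, Csf3r, Il6st and Lifr). The labels describe macrophages of C57BL/6 mice grown from bone marrow for 7 days with 20 ng of recombinant M-CSF, the protein that Csf1 encodes, and treated with 1 µg/ml of LPS, a bacterial cell wall component that activates Toll-like receptor 4. Both groups share this strain, growth factor and treatment, so that no untreated or wild-type macrophages are compared. The groups differ in the label Il19-tdT positive or Il19-tdT negative, where tdT stands for the tdTomato fluorescent reporter of Il19, a cytokine gene of the Il10 family. Each group has 4 libraries of polyadenylated RNA, numbered 1 to 4 in both. The sources used here do not give how the cells were separated, whether a number marks a mouse or a culture, the age of the mice or the time in LPS. P-values therefore measure only how far these samples differ among themselves, which may be technical.

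Colony-stimulating factors are secreted proteins that keep myeloid cells alive and direct their growth and maturation. M-CSF (Csf1) acts on macrophages through the kinase receptor Csf1r, GM-CSF (Csf2) acts through a specific alpha chain (Csf2ra) and the beta common chain (Csf2rb), and G-CSF (Csf3) acts on neutrophils and their precursors through Csf3r. Leukaemia inhibitory factor (Lif) and oncostatin M (Osm) belong to the interleukin-6 family, whose members signal through the shared chain gp130, encoded by Il6st, joined for Lif by Lifr and for Osm by Osmr. Activated macrophages are a known source of several of these cytokines. Stromal cells of the bone marrow make M-CSF and Lif.

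Sequences of the members are shown first, because some of the ligands hold many copies of a short motif in their 3' untranslated regions. A further reason is that Csf1, Lif and Csf2ra are the members on which the comparison turns. In the 3' untranslated region, the pentamer ATTTA is the core of AU-rich elements, which are known as sites of rapid mRNA decay in cytokine transcripts. In GENCODE M21 transcripts (GRCm38, the assembly also called mm10), taking for each gene the transcript with the longest 3' untranslated region, Csf2 had 9 ATTTA pentamers in 317 bases, or 28.4 per kilobase, more than 99.9% of 21039 protein-coding genes. Csf3 had 8.97 per kilobase, Osm 5.90, Lif 2.20 and Csf1 1.89, against a median of 1.24 over all these genes. Csf2ra, Csf2rb and Csf3r had none, while Il6st and Lifr, with 5641 and 6320 bases, had 1.60 and 1.74 per kilobase. Csf3 and Osm stood above 98.4% and 95% of these genes. Lif and Csf1 stood above 67.6% and 62.5%, near the receptors Lifr (59.7%) and Il6st (57%), so the motif does not divide ligands from receptors. The longer form TTATTTA followed by A or T at both last positions occurred 5 times in Csf2, 3 times in Lif and in no other member, and 16.2% of all genes hold at least 1. A match is a description of the letters and was not linked to any measured level. For each ligand, the 30 bases of the 3' untranslated region with the most pentamers are printed here 5′ to 3′, with every ATTTA in capitals.

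Csf2 (chr11:54247329-54247358, minus strand): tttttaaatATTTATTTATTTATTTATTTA

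Csf3 (chr11:98702984-98703013, plus strand): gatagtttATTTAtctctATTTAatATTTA

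Lif (chr11:4272414-4272443, plus strand): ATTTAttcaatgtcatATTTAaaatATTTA

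Osm (chr11:4240939-4240968, plus strand): aatccgttttatATTTAtaaggcctATTTA

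Csf1 (chr3:107741109-107741138, minus strand): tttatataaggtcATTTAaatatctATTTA

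Csf2 carries overlapping copies in a row, whereas the copies in Csf1 and Osm stand apart from each other. Upstream sequences were available from RefSeq (GRCm38.p6) for 7 of the 10 members. Those of Csf1 and Lif, the ligands that were lower in tdT-positive cells, and of Csf2ra, a receptor gene that was higher, are printed from 250 bases before the start site up to the first base of any annotated transcript of the gene, with matches to the searched motifs in capitals. The motifs, searched on both strands in the 250 bases before the start site, were the NF-kB decamer, the AP-1 element TGANTCA, the STAT element TTCNNNGAA and the PU.1 core GAGGAAG.

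Csf1 (chr3:107760470-107760719, minus strand): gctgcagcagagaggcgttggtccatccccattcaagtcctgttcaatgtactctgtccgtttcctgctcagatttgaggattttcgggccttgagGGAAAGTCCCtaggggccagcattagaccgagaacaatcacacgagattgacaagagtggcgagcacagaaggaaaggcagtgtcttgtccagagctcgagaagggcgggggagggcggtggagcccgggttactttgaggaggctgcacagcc

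Lif (chr11:4257318-4257556, plus strand): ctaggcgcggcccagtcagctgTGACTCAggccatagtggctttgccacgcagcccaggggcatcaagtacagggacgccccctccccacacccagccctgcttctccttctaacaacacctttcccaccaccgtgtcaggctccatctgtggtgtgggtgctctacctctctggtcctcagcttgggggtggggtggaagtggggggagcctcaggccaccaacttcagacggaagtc

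Csf2ra (chr19:61228462-61228668, minus strand): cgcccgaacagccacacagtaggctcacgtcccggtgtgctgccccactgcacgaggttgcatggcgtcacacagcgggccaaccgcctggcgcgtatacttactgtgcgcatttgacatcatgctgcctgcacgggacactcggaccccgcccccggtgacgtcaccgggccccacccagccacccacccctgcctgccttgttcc

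Csf1 had a match to the NF-kB decamer on the opposite strand, from 154 to 145 bases before its start site, and 3.90% of 32851 windows of the same length hold one. Lif had a single AP-1 match, 228 to 222 bases before its start site, a motif found in 6.75% of windows. It reads as a match on both strands. Csf2ra had 2 overlapping PU.1 matches within 14 bases of its start site, in the part not printed because another transcript covers it. Csf3r had 1, 86 to 80 bases before its start site (10.6% of windows hold this motif). The windows of Csf3r and Lifr lie wholly inside the annotated span of the gene. No STAT match was found in the windows of the 7 members, and no motif in those of Csf2, Il6st and Lifr, which says only that these letters are not in these windows.

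In the fit that keeps the replicate number as a block, tdT-positive libraries had less transcript of Csf1 and Lif than tdT-negative ones. They had more of Csf2ra and Csf3r. Csf1 was 2.85 times and Lif 4.57 times lower in that fit, whereas Csf2ra was 1.40 times and Csf3r 1.26 times higher. The inflammatory ligands Csf2, Csf3 and Osm, the shared chains Csf2rb and Il6st, and Lifr did not pass in that fit. Among ligands 2 of 5 fell and none rose, and among receptors 2 of 5 rose and none fell. Over all 12610 genes tested, 8.03% were called higher and 7.81% lower in this fit, and 15.8% in either direction. With the group as the only term, which was the main fit, no member passed an adjusted p under 0.05 (edgeR quasi-likelihood test). In that fit 0.0238% of all genes were called (0.00793% higher and 0.0159% lower). Before adjustment, 3 of 10 members and 2058 of the 12610 genes tested had a p under 0.05. The DESeq2 Wald test without the block called Csf1, Lif and Csf2ra, and limma voom called none. All 10 members had passed the filter on low counts. A fold change sets tdT-positive against tdT-negative libraries, CPM are counts per 1e6 after scaling, and n = 4 libraries per group throughout.

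Sequencing gave 49850537 to 58516454 counts per library, at which 3 counts correspond to 0.0490 to 0.0696 CPM. Il19 itself was at 145 to 234 CPM in tdT-positive and 9.17 to 17.0 CPM in tdT-negative libraries, in the direction of the labels. Macrophage markers were abundant in every library, with Adgre1 at 3596 ± 654 and 3973 ± 919 CPM (mean ± SD), and 1 of 9 such markers, Mertk, rose (0.73, adjusted p = 0.0109 with the block), a call lost without number 2 and without the block (adjusted p = 0.140). Lymphoid markers summed to at most 1.06 CPM, and none of 3 endothelial markers tested passed. tdT-positive replicate 3 stood apart by the ribosomal RNA gene Rn45s, which took 12.3% of its counts. tdT-negative replicate 4 stood apart by stromal markers at a summed 2249 CPM and osteoclast markers at 1398 CPM. Libraries that share a number varied together, so values of the fit with the number as a block are given beside the others.

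**Figure D1:**
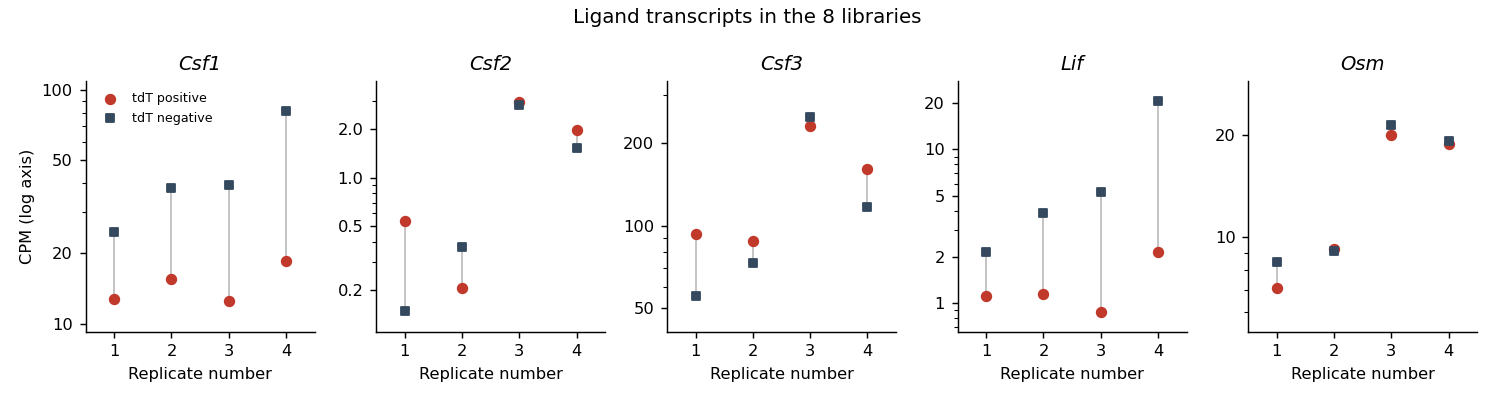
CPM of the 5 ligands (vertical, log axis) by replicate number (horizontal), with red circles for tdT-positive and dark squares for tdT-negative libraries and a grey line joining libraries of a number. Csf1 and Lif are lower in the tdT-positive library of every number, while Csf2, Csf3 and Osm differ more between numbers than between groups.

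Csf1, the macrophage growth factor that the cultures also received as protein, lies at chr3:107741048-107760469 on the minus strand (Entrez 12977). It was at 12.8, 15.5, 12.5 and 18.5 CPM in tdT-positive replicates 1 to 4 and at 24.6, 37.9, 39.3 and 80.8 CPM in tdT-negative replicates 1 to 4. All 4 tdT-positive libraries lay below all tdT-negative ones, and tdT-negative replicate 4 was the highest. The means were 14.8 ± 2.82 and 45.7 ± 24.4 CPM (SD). The log2 fold change was -1.51 (SE 0.18, adjusted p = 0.00852) with the block and -1.62 (SE 0.34, adjusted p = 0.0621) without it. For the CPM values, the exact permutation test (two-sided) gave p = 0.0286, the lower limit with 70 splits. With the block, Csf1 passed without number 1, 2 or 4 and stood at the threshold without number 3 (adjusted p = 0.05001).

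Lif, which takes its name from its effect on leukaemia cells and keeps mouse embryonic stem cells undifferentiated, lies at chr11:4257557-4272514 on the plus strand (Entrez 16878). It had 58, 67, 38 and 131 counts in tdT-positive replicates 1 to 4, or 1.11, 1.15, 0.881 and 2.14 CPM. In tdT-negative replicates 1 to 4 it had 116, 231, 292 and 1222 counts, or 2.16, 3.88, 5.26 and 20.6 CPM. The groups did not overlap, but the highest tdT-positive and the lowest tdT-negative value nearly met, and tdT-negative replicate 4 held most of the counts of its group. The log2 fold change was -2.19 (SE 0.36, adjusted p = 0.0123) with the block and -2.59 (SE 0.69, adjusted p = 0.107) without it, and the exact permutation test gave p = 0.0286. Without the block and without tdT-negative replicate 4 the log2 fold change was -1.51 (adjusted p = 0.0898). With the block, Lif missed the threshold when number 2 or number 3 was left out (adjusted p = 0.0610 and 0.0677). Groups that do not overlap in the lower direction, as for Csf1 and Lif, made up 5.92% of all genes tested.

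Stromal markers were lower in the same libraries. Of 11 stromal markers tested, 10 fell and Dcn did not pass, while 6 passed without number 2 and 1 without number 3. Their summed level was 60.8 to 149 CPM in tdT-positive and 251 to 2249 CPM in tdT-negative libraries. Cxcl12 had the largest log2 fold change of them with the block, -3.24 (SE 0.54). Col1a1, the most abundant per length, was at 32.4 ± 15.8 and 320 ± 361 CPM, and no marker of the list was at 0 in all tdT-positive libraries. Within numbers 1 to 4 the summed stromal level differed by log2 -1.72, -1.86, -3.21 and -4.43, beside -0.95, -1.29, -1.66 and -2.13 for Csf1 and -0.95, -1.74, -2.56 and -3.26 for Lif. Number 1 had the smallest and number 4 the largest difference for Csf1, Lif and the stromal sum. Of 7 osteoclast markers 4 fell, Atp6v0d2 the most (-4.20, SE 0.84) and Ctsk among them, while Acp5 did not pass, and none passed without number 2 or without number 3. Their sum was at 60.0 to 114 CPM in tdT-positive libraries and at 80.2, 158, 113 and 1398 CPM in tdT-negative replicates 1 to 4. The part of stromal or osteoclast RNA in the differences of Csf1 and Lif was not tested, and in bulk samples fewer cells of a type and less RNA per cell cannot be told apart.

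**Figure D2:**
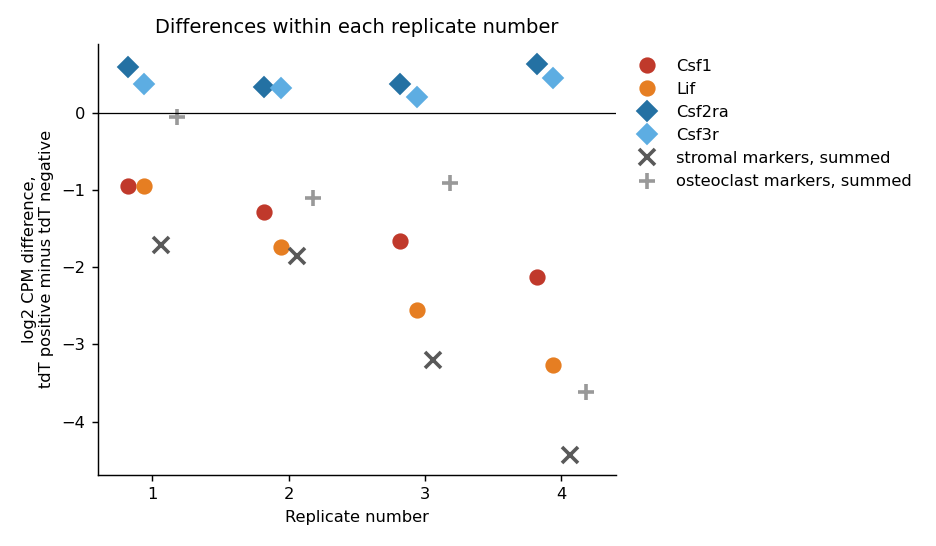
Difference in log2 CPM, tdT positive minus tdT negative (vertical), within each replicate number (horizontal, points set side by side), for Csf1, Lif, Csf2ra and Csf3r and for the summed CPM of stromal and osteoclast markers. Csf1, Lif and the stromal sum lie below 0 in all 4 numbers and lowest in number 4, while Csf2ra and Csf3r lie above 0 in all 4.

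Csf3, which encodes the neutrophil growth factor G-CSF, was the most abundant ligand per length (chr11:98701263-98703629, plus strand, Entrez 12985). It was at 93.4, 88.3, 230 and 161 CPM in tdT-positive replicates 1 to 4 and at 55.4, 73.3, 250 and 117 CPM in tdT-negative ones. The groups overlapped, and replicates 3 and 4 were above replicates 1 and 2 in both groups. Csf3 was higher in the tdT-positive library of 3 of 4 numbers, and its log2 fold change with the block was 0.34 (SE 0.13, adjusted p = 0.118). It passed only in the DESeq2 Wald test with the block (adjusted p = 0.0445).

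Csf2, which encodes GM-CSF, was low (chr11:54247271-54249667, minus strand, Entrez 12981). It had 28, 12, 127 and 121 counts in tdT-positive and 8, 22, 157 and 91 counts in tdT-negative replicates 1 to 4. At 0.149 to 2.95 CPM it was detected in every library, and replicates 1 and 2 were lower than replicates 3 and 4 in both groups. Its log2 fold change was 0.30 (SE 0.34, adjusted p = 0.594) with the block.

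Osm, a cytokine of activated macrophages and neutrophils, was at 7.10, 9.22, 20.1 and 18.9 CPM in tdT-positive and at 8.47, 9.13, 21.4 and 19.2 CPM in tdT-negative replicates 1 to 4. Libraries of a number were close to each other, and numbers 3 and 4 were above numbers 1 and 2 in both groups. The log2 fold change was -0.09 (SE 0.08, adjusted p = 0.474) with the block, the smallest of the 10 members. Osm (chr11:4236420-4241026, plus strand, Entrez 18413) is the neighbour of Lif, with 16530 bases and no annotated gene between them. The 2 neighbours thus had unlike values, since Lif differed between groups in every number.

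The spread over the 8 libraries followed the replicate number for most members. The number accounted for 98.8% of the sum of squares of log2 CPM for Osm, 90.0% for Csf2, 89.8% for Csf3, 90.4% for Csf3r, 85.3% for Il6st and 80.3% for Csf2rb. For Csf1, Lif and Csf2ra the group accounted for more, with 72.3%, 58.0% and 83.3%. Lifr had 60.2% with the number and 20.0% with neither. Il6, the founding cytokine of the gp130 family, was likewise lower in the first of these pairs of numbers, at 88.3 to 94.4 CPM in numbers 1 and 2 and 297 to 422 CPM in numbers 3 and 4. These shares describe the 8 libraries. What the numbers stand for is not labelled.

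**Figure D3:**
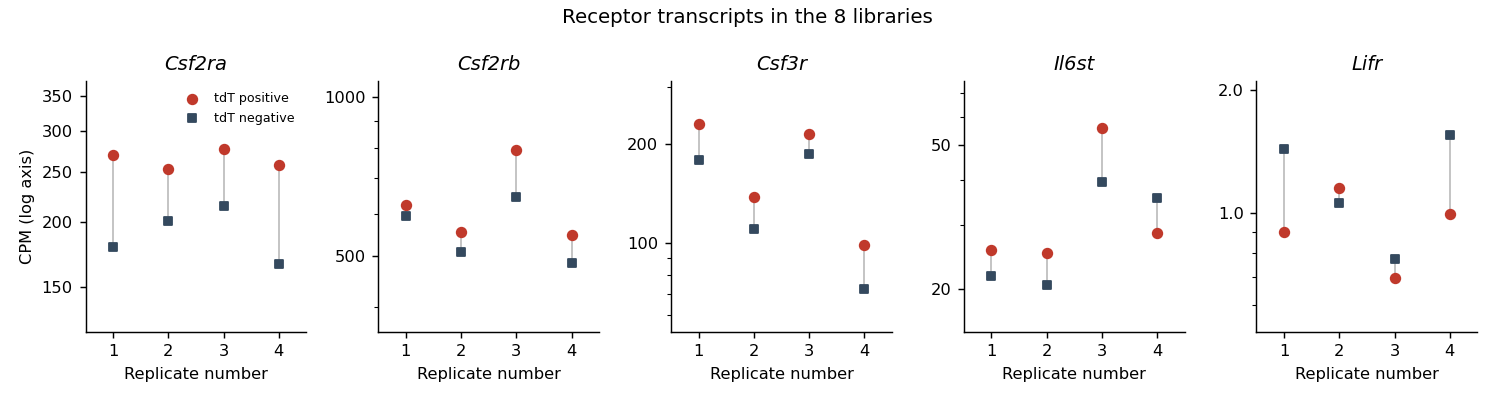
CPM of the 5 receptor genes (vertical, log axis) by replicate number (horizontal), with symbols as for the ligands. Csf2ra lies between 254 and 277 in tdT-positive and between 166 and 215 in tdT-negative libraries, and Csf2rb and Csf3r are higher in the tdT-positive library of every number although their groups overlap.

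Csf2ra, the chain that binds GM-CSF, was the member with the largest share of its spread between the groups (chr19:61223957-61228429, minus strand, Entrez 12982). It was at 270, 254, 277 and 258 CPM in tdT-positive and at 179, 201, 215 and 166 CPM in tdT-negative replicates 1 to 4. All tdT-positive libraries were above all tdT-negative ones, as for 5.46% of all genes tested. The log2 fold change was 0.48 (SE 0.07, adjusted p = 0.0114) with the block and 0.48 (SE 0.10, adjusted p = 0.0626) without it, and the exact permutation test gave p = 0.0286. With the block it passed without each number in turn, with an adjusted p of at most 0.0476.

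Csf2rb, the beta chain shared by the receptors of GM-CSF, interleukin-3 and interleukin-5, was at 624, 554, 793 and 546 CPM in tdT-positive and at 595, 508, 645 and 484 CPM in tdT-negative replicates 1 to 4. It was higher in the tdT-positive library of 4 of 4 numbers, as were Csf2ra and Csf3r, and 41.5% of all genes tested had the same direction in all 4 numbers. Its log2 fold change with the block, 0.17 (SE 0.07, adjusted p = 0.144), did not pass. The gene (chr15:78325752-78353847, plus strand, Entrez 12983) has a close relative, Csf2rb2, 20030 bases away. In an alignment of 1 transcript each, 91.5% of aligned bases were identical, and 18.9% of stretches of 50 bases in Csf2rb also occur in Csf2rb2, so the division of reads between them is uncertain. Csf2rb2, a beta chain specific to interleukin-3 in mice, was at 410 ± 60.8 and 330 ± 28.8 CPM, with no overlap between groups, and rose by 0.31 (SE 0.07, adjusted p = 0.0298). Csf2rb2 missed the threshold when number 1, 2 or 3 was left out (adjusted p = 0.0719, 0.140 and 0.0796). It also missed it with scaling by library totals (adjusted p = 0.0616 with the block).

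Csf3r, the receptor of G-CSF and otherwise known from neutrophils, was at 232, 138, 215 and 98.4 CPM in tdT-positive and at 180, 110, 187 and 72.2 CPM in tdT-negative replicates 1 to 4. The groups overlapped, but each tdT-positive library was above the tdT-negative library of its number. The log2 fold change was 0.33 (SE 0.06, adjusted p = 0.0172) with the block and 0.31 (SE 0.35, adjusted p = 0.735) without it. With the block it did not pass when number 1 or number 2 was left out (adjusted p = 0.0629 and 0.0815), or with scaling by library totals (adjusted p = 0.0666). Of the 6 neutrophil markers tested beside it, S100a9, Ngp, Ltf and Prtn3 fell, S100a8 rose (adjusted p = 0.0497, not passing with DESeq2 size factors or without number 1, 2 or 3) and Camp did not pass. The lower calls were 2 without number 1 (S100a9 and Prtn3), 0 without number 2 and 1 without number 3 (Prtn3). Their list of 11 summed to 372 to 531 CPM in tdT-positive and 85.0 to 644 CPM in tdT-negative libraries, and S100a8 was at 365.6 to 528 and 70.6 to 419 CPM. S100a9 was at 0.713 ± 0.677 CPM in the tdT-positive libraries and at 102 ± 71.0 CPM in the tdT-negative ones. Elane, Prtn3 and Retnlg had no count in any tdT-positive library. In all tdT-negative libraries together they had 5, 150 and 1 counts, and Elane and Retnlg did not pass the filter on low counts. The part of neutrophil RNA in the levels of Csf3r was not tested. Csf3r lies at chr4:126024550-126044440 on the plus strand (Entrez 12986).

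Il6st, the gp130 chain, was at 25.7, 25.1, 55.8 and 28.6 CPM in tdT-positive and at 21.7, 20.5, 39.6 and 35.6 CPM in tdT-negative replicates 1 to 4. tdT-positive replicate 3, the library with 12.3% of its counts in Rn45s, was the highest, and number 4 was the only one in which the tdT-positive library was the lower. The log2 fold change was 0.18 (SE 0.13, adjusted p = 0.365) with the block, and 0.36 (adjusted p = 0.0130) without number 4. Lifr, the chain that Lif binds first, was at 0.696 to 1.15 CPM in tdT-positive and 0.774 to 1.55 CPM in tdT-negative libraries, from 30 to 92 counts each. Its groups overlapped, and its log2 fold change was -0.34 (SE 0.21, adjusted p = 0.302). Il6st (Entrez 16195) lies at chr13:112464070-112510086 and Lifr (Entrez 16880) at chr15:7090614-7197489, both on the plus strand.

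**Figure D4:**
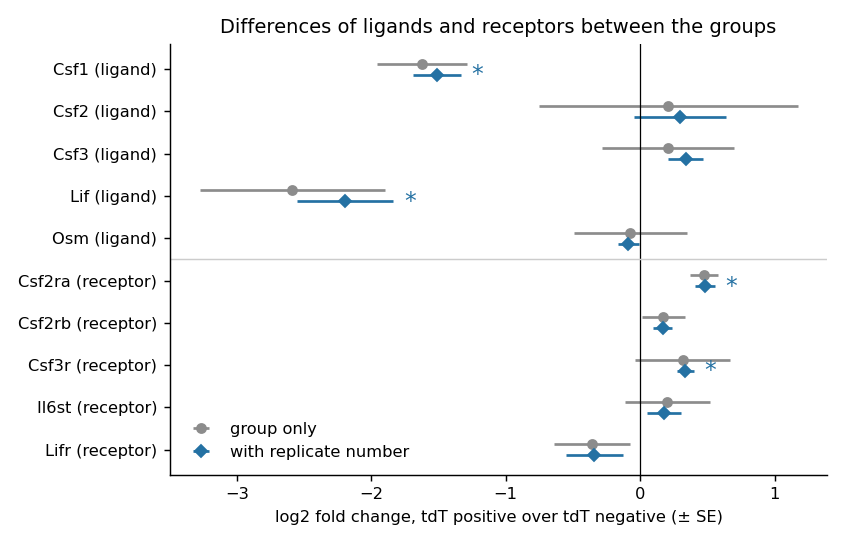
log2 fold change of each member, tdT positive over tdT negative, with its SE (horizontal), from the fit with the group only (grey circles) and with the replicate number as a block (blue diamonds, a star where the adjusted p is under 0.05). Csf1 and Lif lie at -1.51 and -2.19 with the block, Csf2ra and Csf3r at 0.48 and 0.33, and the SE of Csf3r falls from 0.35 to 0.06.

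Set side by side, ligands had a median log2 fold change of -0.09 with the block, with values from -2.19 to 0.34, and receptors one of 0.18, from -0.34 to 0.48. The median of all genes tested was 0.01. Each set has 5 genes of unlike direction, and no test was made of the difference between the sets.

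Levels per length, in RPKM (CPM per kilobase of gene length), were highest for the receptors of GM-CSF. Over all 8 libraries Csf2rb averaged 125, Csf2ra 123, Csf3 98.0 and Csf3r 38.1 RPKM, and the ranges of neighbours in this order overlapped. Osm (7.44), Csf1 (6.84) and Il6st (5.79) followed, with ranges that overlapped each other. The range of Osm did not reach that of Csf3r, whereas Csf1 at its highest, 18.3 RPKM in tdT-negative replicate 4, was just above the lowest value of Csf3r, 17.8 RPKM. Csf2 (1.28) and Lif (1.07) overlapped, and Lifr was lowest at 0.104 RPKM, below every library's value of Lif. Csf1r, the M-CSF receptor, was at 519 RPKM and did not pass (log2 fold change 0.09, SE 0.08, adjusted p = 0.456 with the block).

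The log2 ratio of ligand to receptor counts per base was computed in each library for 8 pairs, as a description with no test. The log2 ratio of Csf1 to Csf1r was -7.46, -7.29, -7.90 and -6.62 in tdT-positive and -6.52, -5.97, -6.03 and -4.39 in tdT-negative replicates 1 to 4. The ranges did not overlap, and the means correspond to 160 and 52.9 times as much receptor as ligand. Lif to Il6st was at -4.33 ± 0.94 and -2.03 ± 1.11 (SD), also without overlap. Lif to Lifr was lower in the tdT-positive library of 4 of 4 numbers, at 1.69 ± 0.47 and 3.48 ± 1.33, with overlap. Csf3 to Csf3r was nearly equal in the groups, at 1.28 ± 0.88 and 1.28 ± 1.09, with more ligand than receptor in 7 of 8 libraries. Csf2 to Csf2ra was at -7.34 ± 1.70 and -7.21 ± 1.86, and Osm to Il6st at 0.17 ± 0.53 and 0.44 ± 0.23. These ratios are of transcripts in bulk RNA and say nothing of which cells made them.

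**Figure D5:**
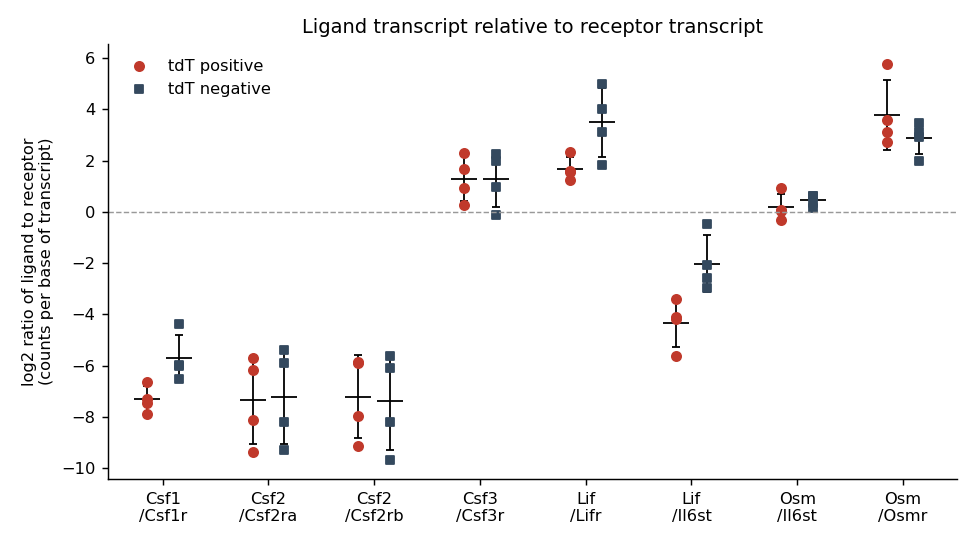
log2 ratio of ligand to receptor counts per base of transcript (vertical) for 8 ligand and receptor pairs (horizontal), with 1 point per library and the mean ± SD of 4 libraries in black. The pairs Csf1 to Csf1r and Lif to Il6st do not overlap between groups, and the Csf2 pairs spread over the widest range within each group.

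Other genes of these pathways were taken from 7 lists with 53 genes, 48 of them tested. With the block 6 rose and 4 fell, or 20.8% of those tested, against 15.8% of all genes, and none passed without the block. Among 7 other gp130-family ligand genes tested, none rose. Il11, a cytokine of stromal cells, had 52 counts in all tdT-positive and 1765 in all tdT-negative libraries. By replicate 1 to 4 these were 6, 11, 1 and 34 counts in tdT-positive and 14, 102, 77 and 1572 in tdT-negative libraries. Most tdT-negative counts thus came from replicate 4, and the CPM of the groups overlapped. The log2 fold change was -4.42 (SE 0.63, adjusted p = 0.00977) with the block and -5.01 (SE 1.48, adjusted p = 0.140) without it. Il11 fell with the block and did not pass without number 3 (adjusted p = 0.0536). Il6, the most abundant of them per length, was at 204 ± 133 and 230 ± 164 CPM and did not pass (-0.13, SE 0.07, adjusted p = 0.215).

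Of 4 further gp130-family receptor genes tested, Il6ra rose by 0.43 (SE 0.10, adjusted p = 0.0273), at 73.6 ± 23.4 and 54.7 ± 18.9 CPM. Il3ra, the interleukin-3 alpha chain, did not pass (0.03, SE 0.07, and -0.05 with scaling by library totals). Of 8 JAK and STAT genes, Stat5a, a transcription factor used by the GM-CSF receptor, rose by 0.29 (SE 0.07, adjusted p = 0.0339), and no other gene of that list rose. Of 12 feedback inhibitors, Cbl, the ubiquitin ligase that limits Csf1r signalling, rose by 0.38 and the adaptor Sh2b3 by 0.29, while Socs2 fell by 1.40 on the log2 scale from a low level. Socs3, the inhibitor of gp130 signalling, was the most abundant of these at 412 RPKM and did not pass (0.19, SE 0.08, adjusted p = 0.163). Of 14 early targets of STAT3 and STAT5, only Bcl6 passed and rose by 0.34 (SE 0.08, adjusted p = 0.0333), and the most abundant, Mcl1, was at -0.01 (SE 0.06). Of the genes named here as passing, Il11, Cbl and Socs2 also passed without number 1, Il11 without number 2, and none without number 3. Without number 4, Il11, Il6ra, Csf2rb2, Stat5a, Cbl, Sh2b3, Socs2 and Bcl6 passed. With the block and scaling by library totals, Stat5a, Sh2b3 and Csf2rb2 did not pass (adjusted p = 0.0752, 0.0574 and 0.0616). Il11, Il6ra, Cbl, Socs2 and Bcl6 passed with that scaling.

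Genes with the most similar pattern over the 8 libraries were sought among 9301 others (9302 for Csf2 and Lifr) whose log2 CPM averaged at least 2, by the root mean square difference of standardised log2 CPM. Closest to Csf1 were Fads3 (0.0979 SD) and the stromal cadherin gene Cdh11 (0.104 SD). Lif was closest to Ccbe1 (0.136 SD) and the matrix gene Thbs2 (0.151 SD). Osm was closest to Il6 (0.158 SD) and Il1a (0.179 SD), both cytokine genes of the LPS response. Csf3 was closest to Pf4 (0.157 SD) and Plaur (0.173 SD), and Csf2 to Plaur (0.216 SD) and Sgms2 (0.218 SD). The receptor Csf2ra was closest to Mafg (0.173 SD) and Gripap1 (0.200 SD), and Csf2rb to Rbpj (0.0952 SD) and Ccdc71l (0.169 SD). Csf3r was closest to Lgals8 (0.162 SD) and Slfn1 (0.180 SD), and Il6st to Qtrtd1 (0.114 SD) and Lpp (0.205 SD). Lifr was farthest from its closest genes, Ncapg2 (0.325 SD) and Coq5 (0.352 SD). With 8 libraries and many candidates, close patterns are a description.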

How the data were processed

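Polyadenylated RNA of 8 libraries (4 tdT positive, 4 tdT negative, made from 220 ng of total RNA per the labels) was analysed from the counts per gene that the authors deposited, with Entrez identifiers, symbols and gene lengths. The submitters' processing notes name STAR and mm10, whereas no source used here gives the counting tool, annotation or strand, which leaves overlapping, antisense and near-identical genes uncertain. Columns were matched through identifiers in the sample descriptions, and groups come from titles. The gene length in the deposited table gave RPKM.

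In edgeR 4.0.16, filterByExpr (count of 10 or more, total of 15 or more) left 12610 genes, scaled by TMM (factors 0.865 to 1.15) and tested with the quasi-likelihood test of edgeR, Benjamini-Hochberg adjusted over all genes, threshold 0.05. SE is the log2 fold change divided by the root of F. Deviations from group means correlated between libraries of a number by 0.598, 0.247, 0.587 and 0.554, and every library matched its own number best. Alternatives used DESeq2 1.42.0, limma 3.58.1, other scalings, filters and thresholds, and left out libraries. log2 CPM had 0.5 counts added. Libraries of a group differed by a chi-square per degree of freedom of 54.0 to 759. The scripts were tested on simulated data. Members, lists and tests were chosen with earlier results of these data known. The naming rule took all members, of each pathway list the genes that passed (up to 4) and the most abundant per length, of each marker list the most abundant and those that changed most, and the 2 most alike genes of each member. Adgre1, Acp5, Ctsk, Dcn, Ngp, Ltf, Camp, Elane, Retnlg and Il3ra are named outside that rule, after their values were seen. Some genes of the pathway lists are counted in the totals and not reported here by name.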

Additional observations from a re-analysis of the deposited data

Results flagged for a closer look

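Of 20 groups of 4 libraries examined, 2 held a library whose gap to the nearest other, divided by the range of the group, exceeded Dixon's 95% critical value, and chance flags about 1 in 20 groups. For Lif in the tdT-negative libraries this ratio was 0.832, from replicate 4 at 20.6 CPM against 2.16 to 5.26 CPM in the others. For Il6st in the tdT-positive libraries it was 0.888, from replicate 3 at 55.8 CPM against 25.1 to 28.6 CPM. These are the libraries that also stood apart by stromal and osteoclast markers and by Rn45s.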

How the results depend on the processing

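Without the block 3 genes and 0 members were called, and leaving out 1 library gave 2 to 456 genes and 0 to 2 members (456 and 2 without tdT-negative replicate 1, 225 and 1 without tdT-negative replicate 4). The DESeq2 Wald test called 921 genes and 3 members, no filter on low counts 216 and 1, and a threshold of 0.1 524 and 2. With the replicate block 1998 genes and 4 members were called, with DESeq2 size factors 1990 and 4, library totals 1418 and 3, upper-quartile factors 1989 and 4, the DESeq2 Wald test 2504 and 5, limma voom 2144 and 4, no filter 2338 and 4, a stricter filter 1644 and 4, a threshold of 0.01 234 and 1, and a threshold of 0.1 3182 and 4. Leaving out a number with the block gave 347 to 2535 genes and 2 to 5 members (1023 and 3, 347 and 2, 355 and 2, and 2535 and 5 without numbers 1 to 4). Scaling by totals moved the median log2 fold change of all genes to -0.07 with the block and the share of higher calls from 50.7% to 29.8% (41.5% with upper-quartile factors).

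The sign turned only in genes that had passed in neither edgeR fit on all libraries, with or without the block. Csf3 and Il6st are among them, although each passed in a setting given above. Il3ra was at -0.064 with totals and -0.012 with upper-quartile factors, and at -0.048 and -0.0050 with the block. Over libraries or numbers left out, log2 fold changes ran from -0.31 to 0.17 for Osm, -0.54 to 0.29 for Il6, -0.42 to 1.03 for Csf2, -0.11 to 0.81 for Csf3, -0.15 to 0.38 for Il6st, -0.031 to 0.20 for Csf1r, -0.11 to 0.089 for Mcl1 and -0.22 to 0.29 for Il3ra. With the block, leaving out number 1 gave -0.021 for Csf2 and -0.0047 for Il3ra, and leaving out number 4 gave 0.00037 for Mcl1. The cause was not tested. Set against the fit without the block, 538 alternative values kept their direction and side of the threshold, 157 passed it and 29 changed sign. No member passed in that reference fit. A call of the block fit that was lost, as for Csf3r with library totals, is therefore counted among the 538. Depth limits Lifr and Csf2, with as few as 30 and 8 counts in a library.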
